A study of Mus musculus with 12 samples.

Results

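The keratins and the genes of the cornified envelope were followed in mouse intestinal epithelium, in freshly isolated crypts and in monolayers grown from crypts. The members were selected by gene symbol alone: every numbered Krt gene, every Sprr gene, Lor, Ivl, Flg, Evpl, Ppl, Tgm1, Tgm2, Tgm3, Tgm5 and Tgm7. This took 81 of the 55487 genes in the count table, namely 28 type I keratins, 26 type II keratins, 17 Sprr genes, 5 transglutaminases, 2 plakins and the 3 further envelope genes Lor, Ivl and Flg. The families were chosen from earlier results of these same libraries, so counts over the members below describe these libraries and are not independent evidence. RNA sequencing had been done on 12 libraries from C57BL/6 mice, male or female and 6 to 10 weeks of age, and they fall into 4 groups of 3. The groups called SI tissue and LI tissue were untreated crypts taken fresh from the small intestine, where the study used jejunum, and from the large intestine, with 1 mouse per library. SI monolayers and LI monolayers were crypts plated on Matrigel and cultured for 24 h without the oncology drugs, with the cells of several wells pooled for each library. Per the study's methods, crypts were first seeded with small-molecule inhibitors, EGF, R-spondin and Wnt3a. The control medium that followed held Wnt3a, EGF, Noggin and R-spondin, so culture and these additions cannot be told apart. For culture, SI epithelium was released with EDTA, and LI pieces were digested with collagenase and dispase in the presence of 1 of these inhibitors. Region and isolation therefore cannot be told apart. The sources used here do not say whether the pooled wells came from separate mice, and p-values therefore measure only the spread between these libraries, which may be technical for the monolayers. The fit shares 1 estimate of the spread of a gene over all 12 libraries, so each p-value also rests on groups not compared. Between 2 replicates, the median spread was 4.24 to 6.35 times the noise of counting in tissue and 2.06 to 3.09 times in monolayers. The p-values between tissues thus also rest on the narrower spread of the monolayers. Per the study's methods, large intestine for culture was taken from the mice that gave the jejunum, so SI and LI libraries may share mice. The region comparisons and the interaction treat the libraries as unpaired.

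Keratins are the intermediate filament proteins of epithelia, and each filament is built from pairs of a type I and a type II keratin. A simple epithelium such as that of the gut relies on a small set, led by Krt8 with Krt18, Krt19 and Krt20, while stratified epithelia such as epidermis and oesophagus use other pairs in their basal, upper or injured layers. The cornified envelope is the protein shell that replaces the membrane of a dying epidermal cell: loricrin (Lor), involucrin (Ivl) and the small proline-rich Sprr proteins are its building blocks, envoplakin (Evpl) and periplakin (Ppl) form its first scaffold at desmosomes, and transglutaminases join the blocks by covalent bonds. Several of these genes are also known outside skin, among them Tgm2, which most tissues make, and Sprr2a, which the gut epithelium makes in response to microbes.

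All libraries carried the marks of gut epithelium. The summed level of 8 gut epithelial markers (Epcam, Cdh1, Vil1, Cdx1, Cdx2, Cldn7, Lgals4 and Cdh17) lay between 10246 and 12433 CPM, counts scaled to a common library size, in all 12. Library totals ran from 59016196 to 76216530 counts. A floor of 3 counts corresponded to between 2.671 and 3.529 normalized counts, the authors' counts divided by the library's size factor, and this and all other limits from counts cover counting error only. Of the counts from 1 to 20 in a library, 73.36% to 77.36% were even, and whether each mate of a read pair was counted is not given in the sources used here. If it was, the floor is 6 counts instead of 3. Mitochondrial transcripts took 2.252% to 9.156% of the counts of tissue libraries and 0.472% to 0.75% of those of monolayers. The sum of gut epithelial markers covered opposite moves of single genes. In mean normalized counts of tissue and monolayers, Cdh1 held 52554 and 112169 in SI, and 73944 and 153980 in LI. Epcam held 105267 and 83059 in SI, and 130576 and 93862 in LI. Cdx2 held 23133 and 17449 in SI, and 22406 and 10784.5 in LI. Vil1 held 160013 and 87646 in SI, and 68916 and 64297 in LI. Because the libraries are bulk RNA, fewer cells of a type and less RNA per cell cannot be told apart for any gene below.

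Of the 81 members, 42 passed the filter on low counts and were tested, 29 had some counts but stayed under it, and 10 had no count in any library. Type I keratins passed in 15 of 28 cases, type II keratins in 12 of 26, Sprr genes in 7 of 17, transglutaminases in 5 of 5, plakins in 2 of 2, and of the last 3 genes Lor alone passed. Involucrin and filaggrin, both hallmarks of cornifying epidermis, were close to absent from the counts: Ivl had 6 counts in total, all in 1 library of LI tissue, and Flg had 2, both in 1 library of SI monolayers. The members under the filter were the type I keratins Krt9, Krt24, Krt25, Krt31, Krt32, Krt33a, Krt34, Krt35 and Krt42, the type II keratins Krt1, Krt2, Krt73, Krt75, Krt76, Krt77, Krt81, Krt82, Krt83, Krt86 and Krt88, and Sprr1b, Sprr2c-ps, Sprr2d, Sprr2e, Sprr2g, Sprr2i and Sprr2k, beside Ivl and Flg. Their totals over the 12 libraries lay between 2 and 77 counts, and the highest single value was 14.9 normalized counts, for Sprr2i in LI monolayers. Krt1 and Krt2, keratins of the upper epidermis, were in this set. No count was found for Krt26, Krt28, Krt33b, Krt40, Krt71, Krt72, Krt74, Sprr2j-ps, Sprr3 and Sprr4, for which a count of 0 allows up to 3 counts a library, or 6 if each mate was counted.

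Of the 42 members tested, 22 reached a mean of at least 10 CPM in a group, and these are described with the value of every library. A member was called where the adjusted p of the edgeR quasi-likelihood fit over all 19581 tested genes was under 0.05 and the fold change was at least 1 on the log2 scale, and "rose" and "fell" are used below for such calls. All levels are normalized counts unless another unit is named.

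**Figure D1:**
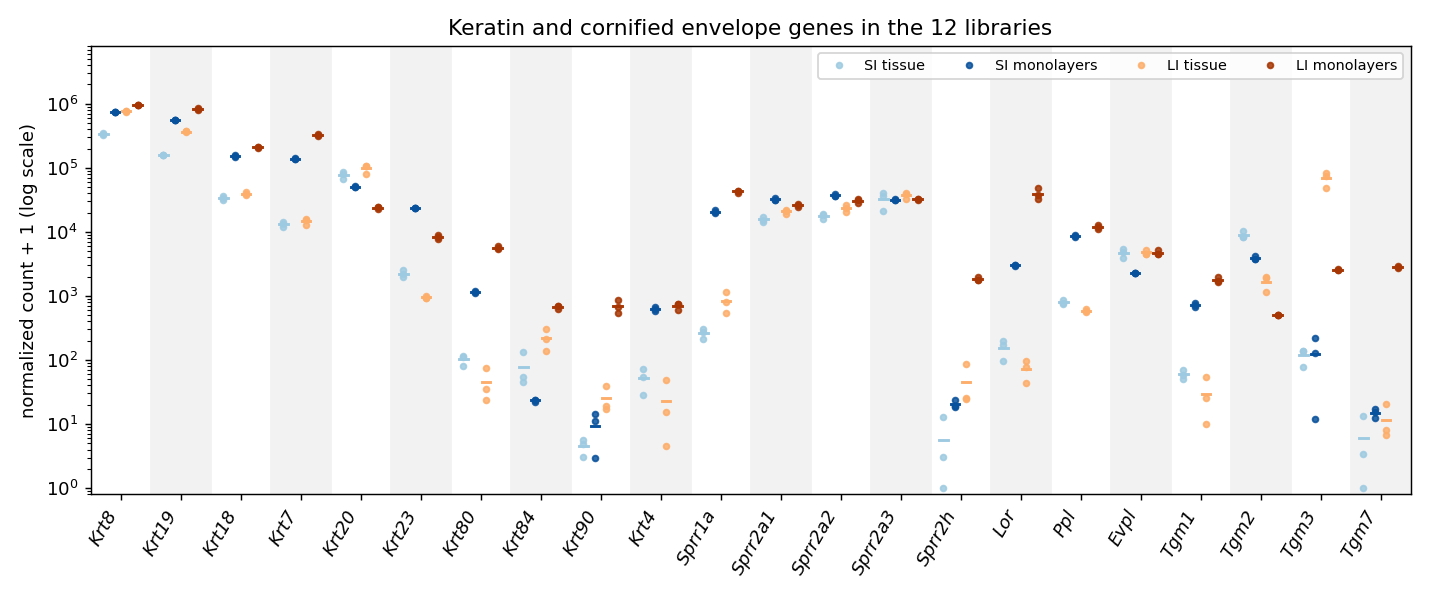
Normalized counts plus 1, on a log axis, of the 22 members with a group mean of at least 10 CPM. Each point is 1 library and each short line the mean of the 3 libraries of a group, with tissue and monolayers of each region side by side. The keratins Krt8 and Krt19 stand highest in every group, Lor and Sprr1a stand far higher in monolayers than in tissue, and the means of Tgm3 and Krt20 are highest in LI tissue.

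Monolayers were first compared with the tissue of the same region, which asks how far cultured crypts keep the expression of their source. In SI, 24 of the 42 tested members rose and 4 fell, where 9.71% of all tested genes rose and 16.4% fell. In LI, 22 of the 42 rose and 5 fell, where 14.5% of all tested genes rose and 23.5% fell. The median log2 fold change of the tested members was 1.39 in SI and 1.31 in LI, beside -0.049 and -0.052 over all tested genes. Type I keratins rose in 10 and fell in 1 of 15 cases in SI, and rose in 7 and fell in 1 of 15 in LI. Type II keratins rose in 7 and fell in 1 of 12 cases in SI, and rose in 8 and fell in 1 of 12 in LI. The 15 members that rose in both regions were Krt4, Krt6a, Krt7, Krt14, Krt16, Krt18, Krt19, Krt23, Krt27, Krt39, Krt80, Lor, Ppl, Sprr1a and Tgm1. Tgm2 fell in both, Krt84 fell in SI and rose in LI, 11 members were called in SI alone and 10 in LI alone. The 4 members called in neither were Krt10, Krt12, Krt17 and Sprr2a3. The filter keeps a gene that is high in a single group, so a tested member had more room to differ than an untested one.

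**Figure D2:**
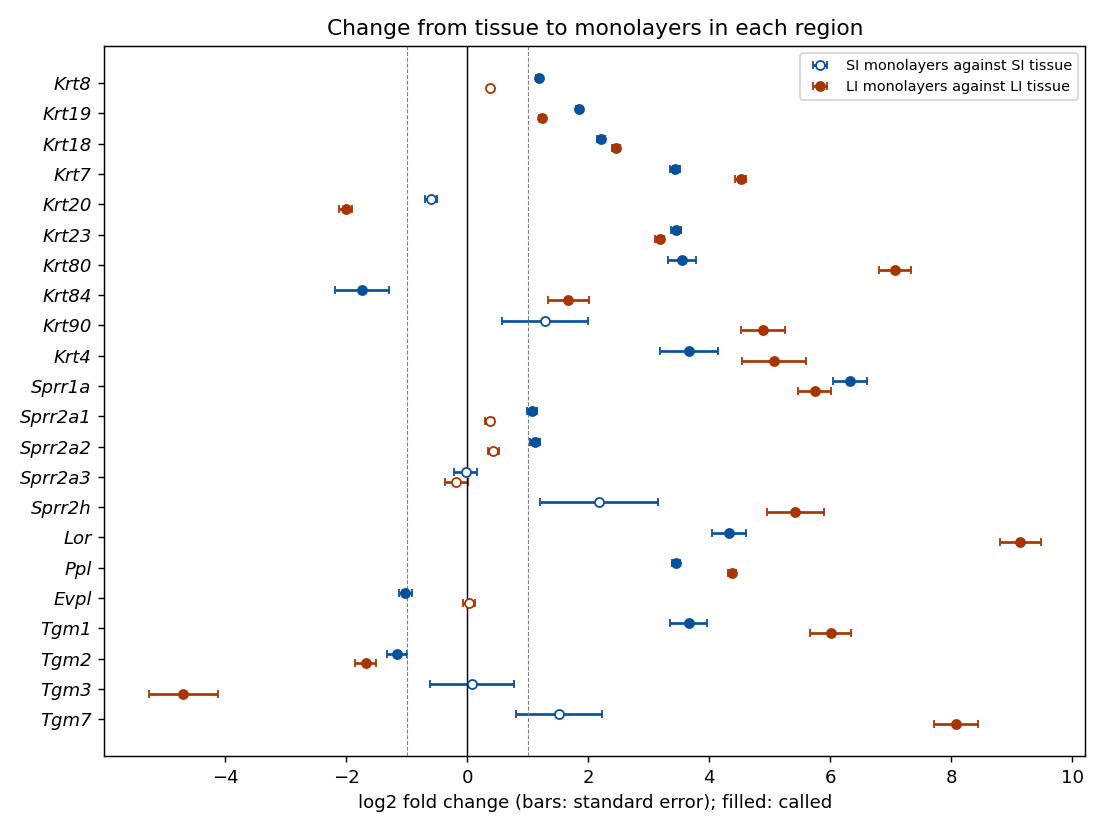
The log2 fold change from tissue to monolayers, with its standard error as bars, of the 22 members with a group mean of at least 10 CPM, in SI and in LI. Filled points were called, dashed lines mark a log2 fold change of 1 in either direction, and the largest value is that of Lor in LI at 9.14.

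Among the keratins of simple epithelia, Krt8, Krt18 and Krt19 were abundant in every library, and in SI all of them rose in monolayers. Krt8 (ENSMUSG00000049382.10, chr15:101996698-102004482, minus strand), the type II keratin of simple epithelia, held 320748, 348855 and 331678 normalized counts in SI tissue and 734695, 732552 and 749241 in SI monolayers. The LI values were 759894, 750729 and 767569 for tissue and 962566, 948972 and 969529 for monolayers. The groups did not overlap within either region, but the difference was called only in SI (log2 fold change 1.18, SE 0.05, adjusted p = 3.62e-12), the LI difference being under the minimum fold change (log2 fold change 0.38, SE 0.04, adjusted p = 9.46e-07). Of the 50-base stretches of Krt8's transcript, 26.9% also occur in the pseudogene Krt8-ps, which held 4097 to 12530.3 normalized counts, so that reads of the pair may have been split between them.

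Krt18 (ENSMUSG00000023043.7, chr15:102028180-102032027, plus strand), the usual type I partner of Krt8, held 31764, 35899 and 33671 normalized counts in SI tissue and 150962, 150077 and 156102 in SI monolayers. LI tissue held 39698, 42184 and 37092, and LI monolayers held 206374, 212157 and 213953. It rose in SI (log2 fold change 2.21, SE 0.06, adjusted p = 6.14e-14) and in LI (log2 fold change 2.46, SE 0.06, adjusted p = 6.56e-15), and no tissue library reached the level of any monolayer library. Krt19 (ENSMUSG00000020911.14, chr11:100140810-100148665, minus strand), the smallest type I keratin, which lacks a tail domain, held 158928, 159264 and 157761 in SI tissue and 555080, 557209 and 568103 in SI monolayers. LI tissue held 360563, 371703 and 371234 and LI monolayers held 795393, 841811 and 869497. Its rise was 1.85 in SI (SE 0.05, adjusted p = 3.71e-14) and 1.23 in LI (SE 0.05, adjusted p = 9.15e-13) on the log2 scale.

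Krt20 (ENSMUSG00000035775.2, chr11:99428403-99438150, minus strand), a type I keratin of mature surface and villus cells, went the other way in LI. It held 106286, 108168 and 81222 normalized counts in LI tissue and 24277, 24430.4 and 22550.2 in LI monolayers, with no overlap (log2 fold change -2.01, SE 0.10, adjusted p = 2.03e-10). In SI it held 80324, 84902 and 68118 in tissue and 50192, 49375 and 51110.3 in monolayers, also without overlap, and this difference passed the adjusted p but not the minimum fold change (log2 fold change -0.60, SE 0.10, adjusted p = 8.95e-05). The change differed between the regions (interaction 1.41 on the log2 scale, SE 0.14, adjusted p = 1.36e-06). The summed level of 8 enterocyte markers (Alpi, Fabp2, Apoa1, Apoa4, Slc26a3, Car4, Aqp8 and Guca2a) was likewise lower in monolayers, at 2695 to 2781 CPM against 6694 to 9628 in SI tissue and at 720 to 756 CPM against 2952 to 3445 in LI tissue, and all 8 had counts in every group. The part of these cells in the level of Krt20 was not tested.

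Krt7 and Krt23, minor keratins of the tissue libraries, rose in both regions. Krt7 (ENSMUSG00000023039.17, chr15:101411043-101430313, plus strand), a type II keratin of ducts and glands, held 11738, 13279 and 14101 normalized counts in SI tissue and 135772, 135312 and 139858 in SI monolayers. Its LI tissue libraries held 15448, 15669 and 12855, and the monolayers 317428, 323281 and 338283. The tissue groups overlapped between regions, whereas every LI monolayer library exceeded every SI monolayer library. An antisense gene, Gm671, overlaps Krt7 over 1269 bases, introns included, and the strand setting of the counting is not given in the sources used here. Reads from there cannot be told apart wherever exons overlap, which was not checked. Krt7 rose in SI (log2 fold change 3.43, SE 0.08, adjusted p = 1.85e-14) and more in LI (log2 fold change 4.52, SE 0.09, adjusted p = 7.09e-16), with an interaction of -1.10 (SE 0.10, adjusted p = 4.31e-07). That interaction lay at the edge, and was under the minimum fold change, at -0.96 to -1.0, without any 1 of SI monolayers 1, SI monolayers 2, LI monolayers 2 or LI monolayers 3. Krt23 (ENSMUSG00000006777.7, chr11:99477974-99493137, minus strand), a type I keratin, held 1991, 2524 and 2163 in SI tissue and 23495, 23681 and 23971 in SI monolayers. LI tissue held 991, 927 and 936 and LI monolayers held 8326, 8871 and 7879. It rose in both regions (3.45 and 3.18 on the log2 scale, adjusted p = 8.23e-15 and 6.56e-15) and was the higher of the regions in SI, both for tissue (log2 fold change 1.27, SE 0.07, adjusted p = 5.03e-10) and for monolayers (log2 fold change 1.53, SE 0.07, adjusted p = 3.76e-11).

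The make-up of the keratin transcripts was set out as normalized counts per kb of exon, with the exons of all annotated transcripts of a gene joined. Comparisons between keratins depend on these lengths, which can exceed that of the transcript made. Krt7, at 7049 bases, is scaled down most. For SI the summed level over all 54 keratins was 323648 ± 11619 normalized counts per kb in tissue and 847122 ± 11484 in monolayers, and for LI it was 668340 ± 4806 and 1154628 ± 25547 (SD, n = 3). Keratins took 0.843% to 0.92% of all counts in SI tissue and 2.57% to 2.62% in SI monolayers. The same range was 1.87% to 1.93% for LI tissue, and 3.48% to 3.56% for LI monolayers. Krt8 and Krt19 made up most of the sum in every library. The share of Krt8 was 52.7% ± 0.863 for tissue and 44.5% ± 0.0724 for monolayers of SI, and 58.0% ± 1.06 and 42.5% ± 0.887 for those of LI. That of Krt19 was 26.4% ± 0.851 and 35.6% ± 0.0973 for tissue and monolayers of SI, and 29.7% ± 0.564 and 39% ± 0.923 for those of LI. Krt8 thus held a lower share, and Krt19 a higher one, in every monolayer library than in any tissue library. The share of Krt18 was 7.26% ± 0.243 in SI tissue against 12.5% ± 0.0991 in SI monolayers, and 4.13% ± 0.236 against 12.7% ± 0.0964 for the LI pair. Krt20, the keratin of mature cells, held 12.5% ± 1.14 of the SI tissue sum against 3.08% ± 0.0242 after culture, and 7.65% ± 1.12 against 1.07% ± 0.0675 for LI. The share of Krt7 was 0.572% ± 0.0537 against 2.29% ± 0.0109 for SI and 0.311% ± 0.0312 against 4.01% ± 0.0481 for LI. Without division by length its share was 2.1% against 8.22% for SI and 1.14% against 13.74% for LI. Krt23 reached 1.79% ± 0.011 in SI monolayers and a mean of at most 0.463% ± 0.0333 in the other groups. All other keratins together stayed between 0.114% and 0.28% in every library.

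**Figure D3:**
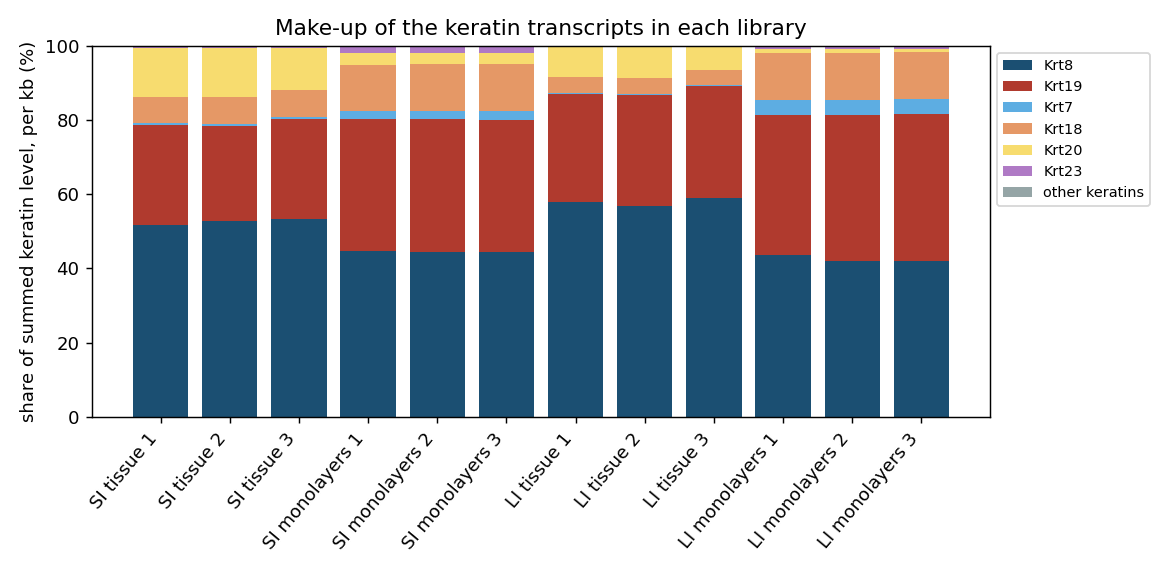
Share of the summed keratin level, in normalized counts per kb of exon and in percent, held by each of 6 keratins and by all other keratins together, with 1 bar for each of the 12 libraries. The band of Krt20 is wide in tissue and narrow in monolayers, and the bands of Krt18 and Krt7 widen in monolayers.

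Type I and type II keratins pair one to one in filaments, and the ratio of their summed transcript levels was therefore followed too. The ratio of type I to type II was 0.913, 0.871 and 0.849 in SI tissue and 1.128, 1.132 and 1.134 in SI monolayers. The LI libraries gave 0.712, 0.743 and 0.683 for tissue, and 1.098, 1.166 and 1.165 for monolayers. Every tissue library was thus under 1 and every monolayer library above it, and with 3 libraries a group an exact permutation test cannot give a two-sided p below 0.10, so none is given. Without division by length the ratio was under 1 in every group (0.788 and 0.897 for tissue and monolayers of SI, 0.656 and 0.834 for those of LI), with monolayers still above tissue in both regions. The length of Krt7 counts here, since its exons span 7049 bases when all its annotated transcripts are joined.

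Other keratins were far less abundant, and several of them had a level in monolayers that tissue did not approach. Krt80 (ENSMUSG00000037185.9, chr15:101347444-101370162, minus strand), a type II keratin known from the cell borders of many epithelia, held 109, 113 and 80.2 normalized counts in SI tissue and 1099, 1144 and 1206 in SI monolayers. In LI the tissue held 73.3, 22.9 and 34.8 and the monolayers 5452, 5548 and 6024. It rose in SI (log2 fold change 3.55, SE 0.23, adjusted p = 1.65e-07) and more in LI (log2 fold change 7.07, SE 0.26, adjusted p = 7.16e-10), and the interaction was -3.52 (SE 0.35, adjusted p = 1.40e-05). An antisense gene overlaps Krt80, introns included, and the strand setting of the counting is not given in the sources used here. Reads of the pair cannot be told apart wherever exons overlap, which was not checked. Krt4 (ENSMUSG00000059668.6, chr15:101918535-101924735, minus strand), the type II keratin of oesophagus and other wet stratified epithelia, held 54.1, 27.1 and 70.4 in SI tissue and 635, 668 and 589 in SI monolayers. In LI tissue it held 47, 14.6 and 3.57, and after culture 605, 741 and 760, so that it rose in both regions (3.67 and 5.07 on the log2 scale, adjusted p = 8.96e-05 and 1.16e-05). The levels of the monolayers of SI and LI overlapped (log2 fold change -0.12, SE 0.40, adjusted p = 0.829). Without LI tissue 1, the highest of its group, Krt4 was called higher in SI tissue (2.50 on the log2 scale) and the interaction was called at -2.63. Its usual type I partner Krt13 rose in SI, from 43.5, 25 and 29.3 to 81.6, 106 and 112 (log2 fold change 1.66, SE 0.26, adjusted p = 3.37e-05), and in LI held 127, 103 and 90.2 in tissue and 167, 196 and 215 in monolayers, which was under the minimum fold change (log2 fold change 0.90, SE 0.23, adjusted p = 0.00237).

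Krt84 and Krt90 were highest in LI monolayers. Krt84 (ENSMUSG00000044294.8, chr15:101525026-101532820, minus strand), a type II keratin of the hair and nail kind, held 209, 306 and 139 normalized counts in LI tissue and 625, 699 and 685 in LI monolayers (log2 fold change 1.67, SE 0.34, adjusted p = 7.86e-04). In SI it held 43.5, 53.2 and 131 in tissue and 21.1, 23.1 and 22.8 in monolayers, a fall (log2 fold change -1.74, SE 0.44, adjusted p = 0.00436), and the interaction was -3.41 (SE 0.55, adjusted p = 2.90e-04). Krt90 (ENSMUSG00000048699.4, chr15:101552356-101562950, minus strand), another type II keratin, held 16, 38.4 and 17.9 in LI tissue and 547, 663 and 873 in LI monolayers (log2 fold change 4.89, SE 0.37, adjusted p = 1.82e-08). In SI it stayed at or below 13.4 in all 6 libraries, with 4.7, 2.08 and 3.91 in tissue and 1.92, 13.4 and 10 in monolayers, a difference called only without SI monolayers 1 (1.76 on the log2 scale).

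The keratins of injured or activated skin were measured at low levels. Krt6a, type II, held 11.8, 2.08 and 1.96 normalized counts in SI tissue and 157, 212 and 205 in SI monolayers, and rose (log2 fold change 5.26, SE 0.50, adjusted p = 3.89e-07). The LI values were 0.94, 7.32 and 11.6 for tissue and 300, 278 and 349 for monolayers, a rise as well (log2 fold change 5.55, SE 0.47, adjusted p = 6.09e-08). Its type I partner Krt16 rose in both regions (3.72 and 2.48 on the log2 scale), to 26.7 to 43.8 normalized counts in SI monolayers and to 50.1 to 83.8 in LI monolayers. Krt17, the third keratin of this kind, was called in neither region (0.67, adjusted p = 0.169, in SI, and -0.82, adjusted p = 0.0688, in LI). Of the 50-base stretches of their transcripts, 45.7% of Krt6a and 37.6% of Krt16 also occur in another gene, so part of these counts may belong to near copies such as Krt6b for Krt6a, and Krt14 for Krt16. The basal layer keratin Krt14 rose in both regions (1.46 and 1.38), and its range was 31.3 to 36.5 against 86.4 to 95.7 in SI, and 95.2 to 146 against 300 to 332 in LI, tissue being given first. Its partner Krt5 stayed between 2.82 and 33.8 normalized counts in all libraries, and was called higher in SI monolayers although the SI groups overlapped (log2 fold change 1.97, SE 0.70, adjusted p = 0.0236). Krt15, another basal keratin, lay between 96.9 and 126 in tissue libraries and between 174 and 247 in monolayers, and was called in SI (log2 fold change 1.10, SE 0.18, adjusted p = 6.17e-05) and under the minimum fold change in LI (log2 fold change 0.94, SE 0.18, adjusted p = 1.98e-04).

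Among the remaining low keratins, several had 1 group that stood apart. Krt222, a type I keratin-like gene, held 265, 315 and 246 normalized counts in SI tissue and between 18.4 and 46.3 in every other library, and fell in SI (log2 fold change -2.90, SE 0.30, adjusted p = 4.73e-07). Krt27, a hair root sheath keratin, held 426, 386 and 584 in LI monolayers against 5.64, 1.83 and 0 in LI tissue, and 25.9, 32.3 and 13.7 in SI tissue against 60.5, 60.5 and 67.5 in SI monolayers. Krt78, type II, held 98.7, 109 and 77.7 in LI tissue and at most 22.9 elsewhere, and fell in LI (log2 fold change -4.45, SE 0.54, adjusted p = 1.52e-06). Krt39, a hair keratin, was at 0 in all 3 SI tissue libraries and at 9.6, 14.2 and 21.9 in SI monolayers. The ratio of the group means was at least 4.77 against a floor of 3 counts in each tissue library, or at least 2.38 if each mate was counted. For single libraries the bound is lower. Krt36 and Krt87, hair keratins, stood higher in LI tissue, at 54.9 to 131 and 274 to 360, than in SI tissue, at 0 to 8.34 and 43.5 to 65.7, and rose in SI (2.44 and 1.34 on the log2 scale, adjusted p = 0.00454 and 8.79e-05). Krt87 shares 36.9% of its 50-base stretches with other genes, so its counts may be mixed. Krt79, a keratin of the hair canal, and Krt6b rose in LI (2.02 and 1.74, adjusted p = 0.00317 and 0.0194), with at most 56.5 and 25.7 normalized counts in any library. Krt12, a keratin of the cornea, held at most 12.5 and was called in no comparison. Krt10, the type I keratin of the upper epidermis, lay between 209 and 388 in all libraries and was not called in any of the 5 comparisons. It was lower in monolayers, without overlap, in both regions, but under the minimum fold change (log2 fold change -0.53, SE 0.15, adjusted p = 0.00624 in SI, and log2 fold change -0.45, SE 0.15, adjusted p = 0.0145 in LI).

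Among the envelope's building blocks, Lor and Sprr1a were far higher in every monolayer library than in tissue. Loricrin (Lor, ENSMUSG00000043165.7, chr3:92080271-92083142, minus strand), the main protein of the epidermal envelope, held 172, 195 and 95.8 normalized counts in SI tissue and 2995, 3057 and 2979.9 in SI monolayers. LI tissue held 95.9, 42.1 and 77.7, and LI monolayers held 32888, 37101 and 47953. Every monolayer library exceeded every tissue library of both regions by a wide margin. Lor rose in SI (log2 fold change 4.33, SE 0.28, adjusted p = 9.82e-07) and by far more in LI (log2 fold change 9.14, SE 0.34, adjusted p = 8.47e-09), with an interaction of -4.81 (SE 0.42, adjusted p = 1.52e-05). In mean normalized counts per kb, Lor reached 22099 in LI monolayers, beside 12326 for Krt20 and 46295 for Krt7 in the same libraries. The value of Krt7 is scaled down by its joined exons of 7049 bases, against 1779 for Lor.

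Sprr1a (ENSMUSG00000050359.7, chr3:92483952-92485895, minus strand), a small proline-rich protein that bridges loricrin in the envelope, held 301, 277 and 215 normalized counts in SI tissue and 20549.8, 19742 and 21622 in SI monolayers. Its LI tissue libraries held 1165, 793 and 533, and the monolayers 41146, 44217 and 43100.3. It rose in both regions (log2 fold change 6.33, SE 0.28, adjusted p = 5.53e-08 in SI, and log2 fold change 5.74, SE 0.27, adjusted p = 4.44e-08 in LI), and the 2 changes did not pass as different (interaction 0.59, SE 0.33, adjusted p = 0.188). Sprr2h (ENSMUSG00000046259.2, chr3:92385685-92387324, plus strand) rose in LI, from 86.5, 24.7 and 23.2 to 1786, 1976 and 1776 (log2 fold change 5.42, SE 0.47, adjusted p = 2.48e-06). In SI it held 11.8, 2.08 and 0 in tissue and 17.3, 22.3 and 18.2 in monolayers, and was not called (log2 fold change 2.18, SE 0.97, adjusted p = 0.0789), although it was without SI tissue 1 (4.14 on the log2 scale) or without LI tissue 1 (2.18), with only the groups compared (2.18) and by DESeq2 (2.11). Its interaction was not called (-3.24, adjusted p = 0.0946), but was without LI tissue 1 (-4.11) and by DESeq2 (-3.28).

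Lor, Sprr1a and Sprr2h lie on chromosome 3 with all other Sprr genes, Ivl and Flg, in the block of skin genes known as the epidermal differentiation complex. The 250 bases before the RefSeq start of these 3 genes are shown because they are the members of this block that rose in LI to at least 10 CPM, and because each holds both motifs that were searched, the AP-1 motif (TGACTCA or TGAGTCA) and a TATA box written as TATAAA, each on either strand. They are RefSeq sequences of build GRCm38.p6 in the direction of the gene, with both motifs in capitals. The RefSeq start of Sprr1a lies slightly inside the GENCODE gene given above, so the last bases of its window are within that gene.
Lor, chr3:92083143-92083392, minus strand: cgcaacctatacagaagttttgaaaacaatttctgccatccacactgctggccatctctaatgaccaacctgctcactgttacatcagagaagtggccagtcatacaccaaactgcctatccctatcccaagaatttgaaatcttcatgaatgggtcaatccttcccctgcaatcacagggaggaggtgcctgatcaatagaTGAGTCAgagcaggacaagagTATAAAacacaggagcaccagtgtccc
Sprr1a, chr3:92485882-92486131, minus strand: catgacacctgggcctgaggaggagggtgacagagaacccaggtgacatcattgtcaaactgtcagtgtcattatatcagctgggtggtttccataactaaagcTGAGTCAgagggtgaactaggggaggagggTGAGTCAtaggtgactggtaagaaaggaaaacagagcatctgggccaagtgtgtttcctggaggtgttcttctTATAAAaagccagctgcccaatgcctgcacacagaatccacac
Sprr2h, chr3:92385435-92385684, plus strand: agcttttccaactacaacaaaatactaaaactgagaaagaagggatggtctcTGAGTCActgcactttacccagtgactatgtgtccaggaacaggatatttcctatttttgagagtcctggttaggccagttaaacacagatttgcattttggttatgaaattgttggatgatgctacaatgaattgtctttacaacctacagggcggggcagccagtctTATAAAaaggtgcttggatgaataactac
The first base of the AP-1 motif lies at -48 in Lor, at -146 and -116 in Sprr1a and at -198 in Sprr2h, and that of TATAAA at -27, -43 and -29, counted from the RefSeq start. In windows of 300 bases, from 250 before to 50 after the start, AP-1 was found in 5.2% and TATAAA in 13.6% of all 32851 promoters in the table. Per gene, AP-1 was found in 5.9% and TATAAA in 15.7% of 27025 genes, and in 11 and 33 of the 57 members that had a promoter there. Among the members that passed the filter and had a promoter, 6 of 29 held AP-1, namely Krt13, Lor, Sprr1a, Sprr2b, Sprr2f and Sprr2h. Of these, Krt13 and Sprr2f were not called in LI monolayers against tissue. AP-1 was not found for Krt7, Krt18, Krt23, Krt84, Krt90, Tgm1 and Tgm7, which also rose in LI to at least 10 CPM. A match of letters describes the window and is not shown to be a site.

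Of the remaining tested Sprr genes of that block, Sprr2a1, Sprr2a2 and Sprr2a3 were high in every group, and they cannot be told apart cleanly. Their coding sequences, with the stop codon, are 252 bases each, identical between Sprr2a1 and Sprr2a2 and different at 3 bases in Sprr2a3. They are shown to make that plain, from GENCODE vM21 transcripts of GRCm38, with the differing bases in capitals.
Sprr2a1 and Sprr2a2: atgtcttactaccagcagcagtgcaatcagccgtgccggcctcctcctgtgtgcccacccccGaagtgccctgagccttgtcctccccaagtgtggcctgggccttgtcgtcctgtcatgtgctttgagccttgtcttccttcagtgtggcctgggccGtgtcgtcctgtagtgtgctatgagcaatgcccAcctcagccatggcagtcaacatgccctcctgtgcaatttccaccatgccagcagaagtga
Sprr2a3: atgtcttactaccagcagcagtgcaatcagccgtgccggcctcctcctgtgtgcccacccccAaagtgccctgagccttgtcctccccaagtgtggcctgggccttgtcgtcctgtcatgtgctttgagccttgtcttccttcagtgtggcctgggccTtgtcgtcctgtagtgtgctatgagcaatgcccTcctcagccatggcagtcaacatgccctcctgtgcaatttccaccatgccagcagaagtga
Of the 50-base stretches of their transcripts, 96.3% of Sprr2a1, 96.5% of Sprr2a2 and 61.1% of Sprr2a3 also occur in another gene, and the annotated gene of Sprr2a2 (chr3:92215920-92256724) overlaps that of Sprr2a1 (chr3:92215799-92221911) on the same strand over 5992 bases. How reads with more than 1 match were counted is not given in the sources used here, so the values of the single genes are uncertain.

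Sprr2a1 held 15571, 17299 and 14098 normalized counts in SI tissue and 33736, 31335 and 31187 in SI monolayers, and rose there (log2 fold change 1.07, SE 0.08, adjusted p = 5.60e-09). In LI the tissue held 21484, 18946 and 22282 and the monolayers 26499.7, 27691 and 24426 (log2 fold change 0.37, SE 0.08, adjusted p = 4.03e-04). Sprr2a2 held 18101, 19298 and 15753 and 38999, 36673 and 36812 in SI, and 23755, 20718 and 26454 and 30997, 32645 and 28661 in LI, in tissue and monolayers in turn, with log2 fold changes of 1.12 and 0.43. The LI differences of these genes were under the minimum fold change. Sprr2a3 (ENSMUSG00000074445.4, chr3:92285417-92291405, plus strand) held 21534, 40551 and 36155 in SI tissue and 32429.6, 30965 and 31415 in SI monolayers, and 40994, 38442 and 32848 and 32388, 32565 and 31246 in LI. SI tissue 1 was the lowest library of Sprr2a3, the SI groups overlapped, and it was called in none of the 5 comparisons. The sum of the 3 genes, which does not depend on how reads were shared out among them but does on whether shared reads were dropped or counted more than once, was 55205, 77148 and 66006 in SI tissue and 105164, 98973 and 99415 in SI monolayers. In LI the sum was 86233, 78106 and 81584 in tissue and 89884, 92901 and 84333 in monolayers, with overlap.

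Sprr2f and Sprr2b, which lie between Sprr2a3 and Sprr2h in gene order, were each highest in the monolayers of another region. Sprr2f held 490, 545 and 451 normalized counts in SI monolayers and at most 4.59 in any other library (adjusted p = 2.11e-10 against SI tissue, and 3.87e-10 against LI monolayers). Sprr2b held 37.5, 55.1 and 81 in LI monolayers and at most 14.1 elsewhere (log2 fold change 2.83, SE 0.66, adjusted p = 0.00121).

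**Figure D4:**
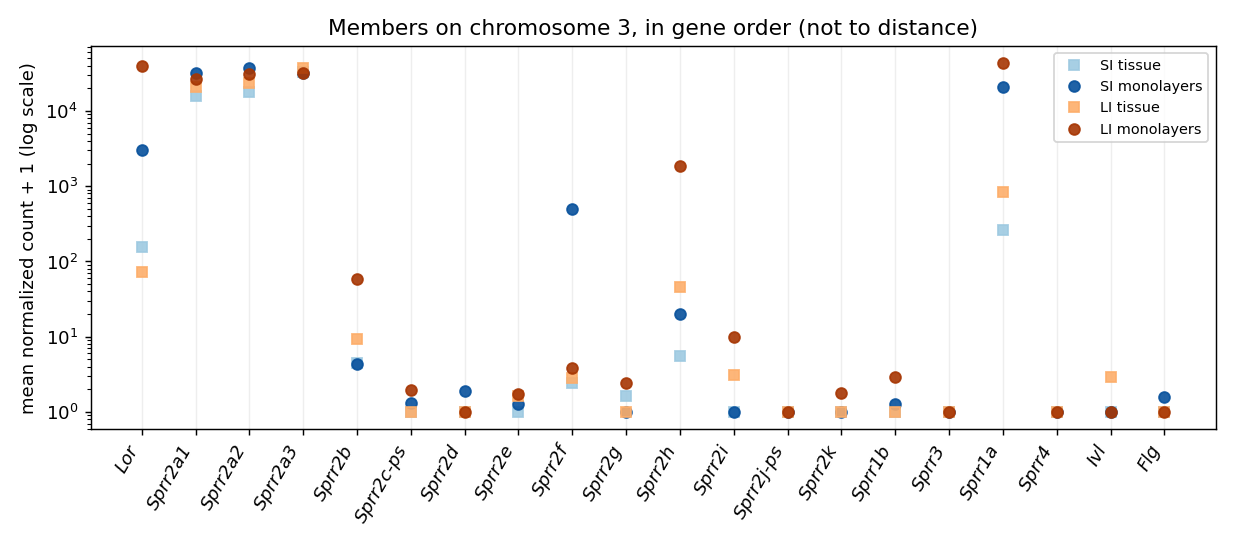
Mean normalized count plus 1, on a log axis, of the 20 members on chromosome 3 in gene order, with a point for each of the 4 groups. Lor, the 3 Sprr2a genes, Sprr2f, Sprr2h and Sprr1a stand above 100 in at least 1 group, Sprr2b reaches a mean of 57.9, and the other genes, Ivl and Flg included, stay below 10.

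The 2 plakins, which tie keratin filaments and the envelope to desmosomes, did not move together. Ppl (ENSMUSG00000039457.4, chr16:5086291-5132421, minus strand) held 786, 869 and 747 normalized counts in SI tissue and 8269, 8535 and 8805 in SI monolayers. The LI values were 628, 575 and 568 for tissue and 11231, 11905 and 12591 for monolayers. It rose in SI (log2 fold change 3.45, SE 0.07, adjusted p = 1.88e-15) and in LI (log2 fold change 4.38, SE 0.07, adjusted p = 1.33e-16), with little spread within groups. Evpl (ENSMUSG00000034282.3, chr11:116220559-116238077, minus strand) held 4806, 5496 and 3929.9 in SI tissue and 2288, 2296 and 2254 in SI monolayers, a fall at the edge of the minimum fold change (log2 fold change -1.02, SE 0.10, adjusted p = 4.90e-07). LI tissue held 5202, 4578 and 4528, and LI monolayers held 4506, 4441 and 5157, with overlap (log2 fold change 0.03, SE 0.10, adjusted p = 0.825). The interaction of Evpl was -1.05 (SE 0.14, adjusted p = 2.45e-05), and the SI fall was under the minimum fold change with only the groups compared (-0.99), and the interaction with upper quartile scaling (-0.96). Each was also under it without SI tissue 2, at -0.91 and -0.93, and without any 1 of the 6 monolayer libraries, at -0.98 to -0.99 and -0.86 to -0.98.

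The transglutaminases, the enzymes that seal the envelope, changed in different directions. Tgm1 (ENSMUSG00000022218.16, chr14:55700009-55713926, minus strand), the membrane-bound enzyme of keratinocytes, held 69.4, 57.3 and 49.9 normalized counts in SI tissue and 726, 763 and 678 in SI monolayers. Its LI tissue libraries held 52.6, 9.15 and 24.1, and the monolayers 1688, 1653 and 2000.1. It rose in SI (log2 fold change 3.66, SE 0.31, adjusted p = 1.11e-06) and more in LI (log2 fold change 6.01, SE 0.34, adjusted p = 1.80e-08), with an interaction of -2.35 (SE 0.47, adjusted p = 0.00166). An antisense gene overlaps Tgm1 too, introns included, so that its reads may be mixed in the same way where exons overlap.

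Tgm2 (ENSMUSG00000037820.15, chr2:158116402-158146436, minus strand), the tissue transglutaminase made by most cell types, was the single member that fell in both regions. It held 8295, 10322 and 8369 normalized counts in SI tissue and 3797, 3796 and 4200 in SI monolayers (log2 fold change -1.16, SE 0.17, adjusted p = 1.82e-04). In LI the tissue held 1940.5, 1893 and 1140 and the monolayers 509, 499 and 494 (log2 fold change -1.68, SE 0.18, adjusted p = 1.49e-05). SI was above LI, with no overlap, in tissue (log2 fold change 2.48, SE 0.18, adjusted p = 9.57e-07) and in monolayers (log2 fold change 3.0, SE 0.19, adjusted p = 3.66e-07). The gene Rprd1b lies across Tgm2 on the other strand over 15896 bases, introns included. Part of these counts may belong to it where exons overlap, which was not checked.

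Tgm3 (ENSMUSG00000027401.9, chr2:130012349-130050399, plus strand), an enzyme of epidermis and hair, marked LI tissue, with 74379.9, 48737 and 83102 normalized counts there and 2568, 2666 and 2503 in LI monolayers. It fell in LI (log2 fold change -4.69, SE 0.57, adjusted p = 7.88e-05). In SI it held 139, 139 and 76.3 in tissue and 129, 223 and 10.9 in monolayers, and SI monolayers 3 stood far below the other 2. Tgm3 was not called in SI (log2 fold change 0.08, SE 0.70, adjusted p = 0.931), and the interaction was 4.77 (SE 0.88, adjusted p = 0.0021). Tgm7 (ENSMUSG00000079103.3, chr2:121093565-121109795, minus strand), a transglutaminase of less known role, was the reverse, with 2860.1, 2750.1 and 2914 in LI monolayers and 5.64, 19.2 and 7.14 in LI tissue (log2 fold change 8.08, SE 0.36, adjusted p = 1.54e-09). In SI it held 2.35, 12.5 and 0 in tissue and 11.5, 16 and 14.6 in monolayers, so the LI monolayers stood apart from all 9 other libraries. Its SI difference was not called (log2 fold change 1.52, SE 0.71, adjusted p = 0.0854), but was without SI tissue 2 (3.61) or without LI tissue 2 (1.52). Tgm5, an epidermal enzyme, held 52.6, 69.6 and 70.5 in LI tissue and 13.5, 9.18 and 11.9 in LI monolayers, and fell (log2 fold change -2.42, SE 0.50, adjusted p = 4.49e-04), while no SI library exceeded 15.6.

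The regions were also compared within tissue and within monolayers. In tissue, 8 of the 42 tested members were higher in SI and 16 were higher in LI, where 11.6% and 11.1% of all tested genes were called in those directions. The call of Krt39, among the 16, lies near the floor and its groups overlapped. It held 0, 5.49 and 1.79 normalized counts in LI tissue and 0 in every SI tissue library (log2 fold change -4.35, SE 1.62). In monolayers, 5 members were higher in SI and 17 higher in LI, where 12.4% and 8.88% of all tested genes were. The median log2 ratio of SI to LI over the tested members was -0.38 in tissue and -0.64 in monolayers, beside 0.055 and 0.021 over all tested genes. These comparisons share their libraries with those above. Among the 22 members of at least 10 CPM, the largest gap in tissue was that of Tgm3 (log2 fold change -9.16, SE 0.73, adjusted p = 7.00e-06), followed by Sprr2h at -3.30, Krt90 at -2.69 and Tgm2 at 2.48. Krt8 and Krt19 were both higher in LI tissue than in SI tissue (-1.15 and -1.17 on the log2 scale, adjusted p = 6.03e-12 and 5.61e-12), and in monolayers their differences were under the minimum fold change (-0.35 and -0.55). Lor and Tgm1 were called higher in SI tissue, at 1.13 and 1.08, but the groups of each overlapped and the calls were lost without LI tissue 2, at 0.86 and 0.66. The call of Lor was also lost without SI tissue 1 or SI tissue 2 (1.05 and 0.92), and that of Tgm1 without any library other than LI tissue 1 (0.66 to 1.18). Lor lost it with no filter on low counts (1.07) too, and Tgm1 with no filter (1.02), with upper quartile scaling (1.0) and with only the groups compared (1.01). Tgm7 was called between tissues only without SI tissue 2 (-3.14). Krt80 was called higher in SI tissue too, at 1.25, and without LI tissue 2 was under the minimum fold change at 0.94. In monolayers the largest gaps among these 22 were those of Tgm7 at -7.61, Sprr2h at -6.54, Krt90 at -6.29 and Krt84 at -4.87, all higher in LI. Sprr1a was at the edge there (log2 fold change -1.02, SE 0.22, adjusted p = 0.00361), and was under the minimum fold change, at -0.96 to -0.99, without any 1 of SI monolayers 1, SI monolayers 2, LI monolayers 2 or LI monolayers 3. Evpl was likewise at the edge (log2 fold change -1.02, SE 0.10, adjusted p = 7.42e-07) and lost its call without any SI monolayer library or without LI monolayers 3, at -0.91 to -0.99.

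Whether the change from tissue to monolayers differed between SI and LI was tested as an interaction, the SI change minus the LI change. Of the 42 tested members, 8 were called with a higher change in SI and 10 with a higher change in LI, where 11.4% and 8.51% of all tested genes were called. The median over the tested members was 0.16 and that over all tested genes was 0. The members with the higher change in LI were Evpl, Krt7, Krt27, Krt80, Krt84, Krt90, Krt222, Lor, Tgm1 and Tgm7, of which Evpl and Krt222 fell in SI and were not called in LI. Those with the higher change in SI were Krt17, Krt20, Krt36, Krt78, Krt87, Sprr2f, Tgm3 and Tgm5.

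Genes that work beside the members were followed in 7 lists, also drawn up with results of these data known. Their counts stand beside shares over all tested genes of 9.71% higher and 16.4% lower in SI, and 14.5% higher and 23.5% lower in LI. Desmosomes, the junctions to which keratins are anchored, had 11 of 16 genes tested, of which 1 rose in SI, near the share of all genes, and 6 rose in LI. The desmosomal cadherin Dsg3, known from stratified epithelia, rose from 9.4 ± 4.16 to 838 ± 81.4 normalized counts in SI (log2 fold change 6.52, SE 0.36, adjusted p = 5.60e-09) and from 61.4 ± 30 to 1258 ± 65.7 in LI (log2 fold change 4.41, SE 0.27, adjusted p = 9.99e-09). Desmoplakin (Dsp), which ties keratins to the junction, held 23003 ± 1707 and 35302 ± 249 in SI tissue and monolayers, under the minimum fold change, and rose from 32886 ± 2175 to 76284 ± 2955 in LI (log2 fold change 1.26, SE 0.06, adjusted p = 1.60e-11). The cadherin Dsg2 of simple epithelia rose in LI too (log2 fold change 1.12, SE 0.06, adjusted p = 9.56e-11), whereas plakoglobin (Jup) was under the minimum fold change in both regions, and the plakophilin Pkp1 was not called in either (log2 fold change -0.10, SE 0.06, adjusted p = 1.77e-01 in SI, and log2 fold change 0.11, SE 0.06, adjusted p = 1.45e-01 in LI). Among cytolinkers and hemidesmosome genes, which anchor keratins to the base of the cell, 7 of 7 were tested and 2 were called, both with a rise in LI. These were the integrins Itga6 (log2 fold change 1.28, SE 0.05, adjusted p = 5.57e-13) and Itgb4 (log2 fold change 1.77, SE 0.09, adjusted p = 1.58e-10). Plectin (Plec) and epiplakin (Eppk1), both linkers of keratin filaments, were called in neither region. Plec was just under the minimum fold change in LI (log2 fold change 0.99, SE 0.11, adjusted p = 2.82e-06). Eppk1 was lower in monolayers of both regions, also under the minimum (log2 fold change -0.77, SE 0.15, adjusted p = 4.51e-04 in SI, and log2 fold change -0.89, SE 0.15, adjusted p = 1.15e-04 in LI).

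Of 21 other cornification genes, 12 were tested, of which 8 rose in SI, and 7 rose and 3 fell in LI, the last near the share of all genes that fell. Cornulin (Crnn), a calcium-binding protein of oesophagus and skin, held 1398 ± 93.1 normalized counts in LI monolayers against 9.9 ± 9.37 in LI tissue (log2 fold change 7.19, SE 0.43, adjusted p = 1.31e-08). The lipid transporter Abca12 rose in SI, from 7.26 ± 4.62 to 404 ± 20.2 (log2 fold change 5.84, SE 0.55, adjusted p = 6.55e-06), and fell in LI, from 1309 ± 686 to 580 ± 33.1 (log2 fold change -1.13, SE 0.33, adjusted p = 1.10e-02). Caspase 14 (Casp14), a protease of cornifying skin, had the same signs, with a fall from 850 ± 259 to 11 ± 6.19 in LI (log2 fold change -6.22, SE 0.38, adjusted p = 1.29e-09). Of the other transglutaminase genes, 3 of 4 were tested and F13a1, named after its values were seen, was called alone, with a fall in LI.

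The S100 genes, calcium-binding proteins that share the block on chromosome 3, had 10 of 12 tested, with 7 higher in SI monolayers than in tissue, and 8 higher and 1 lower in LI. S100a6 rose from 3292 ± 299 to 64793 ± 1352 normalized counts in SI (log2 fold change 4.33, SE 0.08, adjusted p = 2.13e-15) and from 61810.2 ± 6044 to 195738 ± 1759 in LI (log2 fold change 1.71, SE 0.08, adjusted p = 7.00e-12). S100a11 rose likewise (log2 fold change 3.90, SE 0.07, adjusted p = 1.61e-15 in SI, and log2 fold change 3.66, SE 0.07, adjusted p = 7.73e-16 in LI), and S100a10 rose by 1.03 and 1.05 on the log2 scale. S100a1 fell in LI (log2 fold change -1.55, SE 0.07, adjusted p = 5.73e-12). Intermediate filaments other than keratins had 13 of 13 genes tested, of which 2 rose in SI, and 4 rose and 1 fell in LI. Vimentin (Vim) rose in LI (log2 fold change 1.18, SE 0.18, adjusted p = 1.02e-04) and was not called in SI (log2 fold change -0.37, SE 0.18, adjusted p = 9.65e-02), lamin A (Lmna) rose in SI (log2 fold change 1.90, SE 0.06, adjusted p = 3.56e-13), and the B lamins were called once, Lmnb1 in LI. Lmnb2 was lower in both regions but under the minimum fold change (-0.29 in SI and -0.85 in LI on the log2 scale, adjusted p = 1.52e-03 and 1.40e-08). Of 14 epithelial transcription factors, 13 were tested, with 3 higher and 2 lower in SI and 3 higher and 4 lower in LI. The falls lay near the shares of all genes and the rises above them, on few genes. Grhl3, a factor of barrier formation, rose from 60.4 ± 12.3 to 2086 ± 32.3 in SI (log2 fold change 5.15, SE 0.23, adjusted p = 2.35e-09) and from 162 ± 59 to 3415 ± 119 in LI (log2 fold change 4.44, SE 0.20, adjusted p = 1.51e-09). Klf4, a factor of terminal differentiation in gut and skin, fell in both (log2 fold change -1.73, SE 0.07, adjusted p = 1.05e-11 in SI, and log2 fold change -3.13, SE 0.08, adjusted p = 7.67e-15 in LI), as did Ovol2 (log2 fold change -1.91, SE 0.12, adjusted p = 1.02e-09 in SI, and log2 fold change -2.31, SE 0.12, adjusted p = 4.95e-11 in LI). Klf5 and Elf3 were called in neither, their LI differences being under the minimum fold change (0.37 and -0.29 on the log2 scale, adjusted p = 2.17e-04 and 3.27e-04).

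Markers of other cell types were read beside these results. The summed level of 8 squamous epithelium markers was 67.9 to 72.5 CPM for SI tissue against 138 to 141 for SI monolayers, and 128 to 149 for LI tissue against 259 to 268 for LI monolayers. The defining factor of squamous cells, Trp63, was at or near 0 in all libraries, with 0 to 7.12 normalized counts, and Dsc3, Krtdap and Lgals7 stayed at or below 9.4, 5.88 and 12.5, with Krtdap at 0 in all SI monolayers. The sum came mainly from Pkp1 and from Serpinb5, which held 160 to 211 normalized counts in SI tissue and 3983 to 4320 in SI monolayers, and 5165 to 6081 and 11589 to 11853 for the LI pair. Dsg3, given above, rose in both regions, and Sbsn held 13.7 ± 6.65 in SI tissue against 55 ± 7.24 in SI monolayers, and 18.4 ± 7.94 against 617 ± 45.2 for the LI pair. The summed level of 6 mesothelial markers was 13.9 to 16.6 CPM for SI tissue against 181 to 188 for SI monolayers, and 9.93 to 24.6 for LI tissue against 224 to 247 for LI monolayers. In monolayers Msln accounted for most of it, with 10855, 10911 and 11063 normalized counts in SI monolayers and 16024, 15333 and 14754 in LI monolayers, while Wt1 stayed at or below 32.1 and Lrrn4 at or below 5.93 in monolayers. Upk1b and Upk3b were also higher in SI monolayers, at 924 ± 78.3 and 118 ± 17.4 against 275 ± 15.5 and 18.8 ± 9.04 in SI tissue. LI tissue held 514 ± 334 of Msln, 291 ± 118 of Upk3b, 162 ± 32.9 of Upk1b, 131 ± 28.1 of Gpm6a and 75 ± 32.5 of Lrrn4. LI monolayers held less Upk3b, at 6.84 ± 0.887, with 216 ± 22.7 of Upk1b and 113 ± 29.7 of Gpm6a. Gpm6a was also lower after culture in SI, at 161 ± 35.5 in tissue and 93.3 ± 26.1 in monolayers. The mesothelial markers thus did not move together. For the SI pair, 9 mesenchymal markers came to 8.43 to 25.9 CPM in tissue and 9.39 to 19.4 in monolayers, 9 immune markers to 186 to 196 and 47.4 to 53.1, and 6 tuft cell markers to 383 to 522 and 35.6 to 37.5. For the LI pair they came to 38 to 59.8 and 32.7 to 53.6, 35.4 to 38.9 and 3.43 to 4.08, and 40.6 to 62.9 and 6.9 to 8.5. Every gene of these lists had a count in every group, apart from Krtdap. The part of such cells in the levels of the members was not tested.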

How the data were processed

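RNA was sequenced from 12 libraries, 3 in each of 4 groups. Per the study's methods and notes, paired-end reads were aligned to GRCm38 with STAR 2.7.9a and counted with featureCounts 2.0.2, and the authors deposited whole counts per gene without normalization. The authors also deposited normalized values, a signal equal to each count divided by 1 DESeq2 (3.13) size factor per library (0.85 to 1.123). Strand, mates and multiple matches in counting are not given in the sources used here. No deposited column lacked a sample. The 346 genes without a symbol stayed in the fit.

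Counts were tested with edgeR 4.0.16 (TMM, robust quasi-likelihood, filterByExpr, 4 group means) in R 4.3.3, with Benjamini-Hochberg adjustment over 19581 genes. DESeq2 1.42.0 and other settings were alternatives. The script was tested on simulated data. The members and gene lists were chosen with earlier results of these data known. Members with a group mean of at least 10 CPM were named in full, other tested members by range and calls, and from each list the genes of at least 10 CPM with the largest and smallest change in each region and the 3 most abundant. Cell marker lists were squamous, mesothelial, mesenchymal, immune, gut epithelial, tuft and enterocyte. Gene positions, exon lengths and shared 50-base stretches came from GENCODE vM21 (GRCm38), in which 80 of 81 members had the same versioned ID, and promoters from RefSeq.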

Additional observations from a re-analysis of the deposited data

Results flagged for a closer look

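The results below stood out because the change from tissue to monolayers differed between SI and LI in a test of the difference itself, the interaction of the edgeR quasi-likelihood fit over 19581 genes. They are log2 values of the SI change minus the LI change, and they rest on 3 libraries a group.

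Among the members that rose in LI monolayers, the interaction was -6.56 for Tgm7 (adjusted p = 7.34e-04), -4.81 for Lor (adjusted p = 1.52e-05), -3.61 for Krt90 (adjusted p = 0.00693), -3.52 for Krt80 (adjusted p = 1.40e-05), -3.41 for Krt84 (adjusted p = 2.90e-04), -2.35 for Tgm1 (adjusted p = 0.00166) and -1.10 for Krt7 (adjusted p = 4.31e-07). For Tgm7 it was -4.48 and not called without SI tissue 2, which held 12.5 normalized counts where the other 2 SI tissue libraries held 2.35 and 0. Krt27 gave -6.11 (adjusted p = 9.51e-07), with at most 5.64 normalized counts in LI tissue.

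Among the members that fell in SI but not in LI, Krt222 gave -3.11 (adjusted p = 2.81e-05) and Evpl -1.05 (adjusted p = 2.45e-05). Among those that fell in LI but not in SI, Tgm3 gave 4.77 (adjusted p = 0.0021), Krt78 3.76 (adjusted p = 5.52e-04), Tgm5 1.96 (adjusted p = 0.0465) and Krt20 1.41 (adjusted p = 1.36e-06). Krt36 gave 2.7 (adjusted p = 0.0112) and Krt87 1.35 (adjusted p = 0.00172), both called in SI alone. Krt17 gave 1.49 (adjusted p = 0.0386) and was called in neither region. Sprr2f gave 7.77 (adjusted p = 8.05e-05), a fitted value that rests on at most 4.59 normalized counts in the libraries other than SI monolayers.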

How the results depend on the processing

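The counts of members called kept within 1.5 times the reported ones with DESeq2, upper quartile scaling, no filter on low counts, calls without a minimum fold change, fits of only the groups compared, halved counts, and each library left out in turn. A minimum of 10 counts in every library, which tests fewer genes, gave 14 members called in LI monolayers against tissue, 15 between regions in tissue, 13 between regions in monolayers and 11 for the interaction, where 33.3%, 18.1%, 17% and 19.6% of all genes tested were called. Fewer than 42 members were tested with that minimum, so these member counts cannot be read as shares of 42. Without a minimum fold change, 30 of the 42 tested members were called in SI and 33 in LI, where 59.6% and 68.7% of all genes were. Between regions 29 were called in tissue and 29 in monolayers, where 53.9% and 51.8% of all genes were. For the interaction 25 were called, where 46.3% of all genes were. The members thus stood nearer to the share of all genes than with the minimum fold change. Same-numbered libraries showed no shared deviation (correlations -0.052 to 0.056), but numbers need not follow mice, so this cannot show whether libraries share mice. A replicate block, which pairs libraries by number, gave 28 called in SI, 27 in LI and 18 for the interaction. Between regions it gave 21 in tissue and 21 in monolayers, and under it Lor (1.14) and Tgm1 (1.10) were no longer called between tissues. Upper quartile scaling moved the median of all genes in LI by -0.119.

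Signs changed for 3 named members whose differences were near 0 and not called, and the cause was not tested. For Sprr2a3 the SI difference was 0.01 with only the groups compared, 0.0 with the replicate block and -0.24 to 0.16 leaving out 1 library. Between regions it was -0.33 to 0.08 in tissue on leaving out 1, -0.02 in monolayers with DESeq2, no filter or the minimum of 10 counts, and the interaction was -0.07 to 0.34 on leaving out 1. For Tgm3 in SI, leaving out 1 library gave -0.69 to 0.66. For Evpl in LI the difference was -0.01 with DESeq2, -0.09 with upper quartile scaling, -0.05 with the minimum of 10 counts and -0.12 to 0.08 on leaving out 1. Between tissues it was -0.05 with upper quartile scaling, -0.03 with no filter, -0.01 with the minimum of 10 counts, -0.03 with only the groups compared and -0.08 to 0.15 on leaving out 1. Other calls of named members that were lost or gained are given beside the result, apart from part of the 22 gained without a minimum fold change. Those not given include the interactions of Ppl (-0.93), Krt8 (0.80) and Krt19 (0.63).

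Without division by length, which weights long genes more by construction, the type I to type II ratio was 0.788 in tissue and 0.897 in monolayers of SI, and 0.656 and 0.834 for LI. The shares, in percent and in the same order, were 53.78, 44.36, 59.21 and 40.44 for Krt8, 25.59, 33.63, 28.68 and 35.17 for Krt19, 2.1, 8.22, 1.14 and 13.74 for Krt7, 5.44, 9.15, 3.09 and 8.88 for Krt18, and 0.36, 1.42, 0.07 and 0.35 for Krt23. Krt20 moved to 3.02 in SI monolayers and 1.0 in LI monolayers.

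Genes under about 10 normalized counts rest on few reads, and their fold changes are imprecise. With 3 libraries a group and wells pooled before sequencing, the spread between cultures from separate mice is not known.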
